A study of Ginkgo biloba with 7 samples.

Results

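miR162 and miR168 are the miRNA families that, in other plants, act back on the machinery that makes and uses small RNAs, and the results below describe their reads and their listed target genes in ovules of Ginkgo biloba. Genes were taken as members when the list of miRNA targets paired them with miR162, miR168 or miR403 and with no miRNA of another number. This gave 38 genes of the 902 in the list, 21 for miR162 and 17 for miR168. miR403 had 0 names in the read table and 0 in the target list, so no gene entered through it. A further 6 genes were also listed for other families and are described separately at the end of the section.

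The ovules came from several trees of the cultivar Fozhi and were sampled at 2 stages. PD stands for the mature ovule that secretes its pollination drop, the fluid in which airborne pollen is caught, and PN for the pollinated ovule at 1 day after pollination. Of the 7 samples, 4 were RNA-seq libraries, 2 were small RNA libraries and 1 was a mix of ovules of both stages that carries the target list. No unpollinated ovule of the later stage was among the samples, so pollination and elapsed time cannot be told apart. Whether a library pooled several trees is not stated in the labels.

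In plants, Dicer-like 1 (DCL1) cuts miRNAs out of their hairpin precursors, and Argonaute 1 (AGO1) holds the mature miRNA while it cleaves or silences a matching mRNA. In Arabidopsis, miR162 directs cleavage of the DCL1 mRNA, miR168 directs cleavage of the AGO1 mRNA and miR403 targets AGO2. The DCL1 and AGO1 pairs form feedback loops in which the abundance of the machinery influences the miRNAs that restrain it. The files give each Ginkgo gene by an ID alone, with no name or description. Which member, if any, encodes a Dicer-like or Argonaute protein was therefore not determined here, and no member is given a function below. For the same reason the ovule identity of the samples was not checked against marker genes.

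Each stage had 1 small RNA library. Of the RNA-seq libraries 1 per stage was used, because 2 columns of the gene table carry the same sample name and could not be assigned. The values below are therefore without replicates, and each difference is one between libraries rather than a tested difference between stages. The gene table gives FPKM (fragments per kilobase of gene, relative to library size), so levels can be set side by side between genes. Its low values move in steps of 1 fragment, which place the PN library at 1.18 times the depth of the PD library, while the absolute depth is unknown. The small RNA libraries held 774387 counted reads in PD and 1129198 in PN over 279 miRNA names. In bulk tissue, fewer cells of a type and less RNA per cell cannot be told apart.

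The first question was how abundant the miRNAs of the feedback families were at the 2 stages. Their reads fell on 5 names of miR162 and 4 names of miR168. The prefix of a name gives the species in which that sequence was catalogued (ath for Arabidopsis, bdi for Brachypodium, zma for maize, osa for rice, cln for the conifer Cunninghamia lanceolata, gma for soybean, bna for Brassica napus and sly for tomato). None of the names is a Ginkgo one. The suffixes 3p and 5p mark the arm of the hairpin.

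miR162 was the more abundant family in both libraries. The name with most reads was bdi-miR162, with 2327 reads in PD (3005 TPM, the read count scaled to a fixed total of counted reads, exact Clopper-Pearson 95% interval 2884 to 3129) and 3094 reads in PN (2740.0 TPM, 2644 to 2838). It was lower in PN, at 0.912 times its PD share (exact conditional binomial 95% interval 0.864 to 0.963). ath-miR162a-3p, the arm that acts as the guide in Arabidopsis, had 1095 reads in PD (1414 TPM, 1332 to 1500.3) and 1814 in PN (1606 TPM, 1533 to 1682). Its share was 1.14 times higher in PN (1.05 to 1.23), so the leading names of one family stood on opposite sides of equality, each past counting error. With the reads of miR166, the dominant family of both libraries, left out of the totals, the ratio of bdi-miR162 was 0.973 with an interval of 0.922 to 1.03, and that of ath-miR162a-3p was 1.21. All intervals on reads hold counting error alone, and spread among ovules or preparations is not in them.

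zma-miR162-3p had exactly the read counts of ath-miR162a-3p in both libraries. When identical counts were taken once, bdi-miR162 made up 67.9% of the miR162 reads in PD (66.3 to 69.4, Clopper-Pearson) and 62.8% in PN (61.4 to 64.2). This balance within the family does not depend on how the libraries were scaled. Summed over all 5 names, miR162 held 0.584% of counted reads in PD and 0.597% in PN. The ratio of these shares was 1.02 (0.984 to 1.06). This sum includes the equal counts of both ath-miR162a-3p and zma-miR162-3p, and its interval treats them as separate reads. With identical counts taken once, the shares were 0.443% in PD and 0.436% in PN, a ratio of 0.985 (0.943 to 1.03). Neither ratio describes the main names of the family. Among family sums, miR162 stood at position 13 in PD and 12 in PN.

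The remaining names of miR162 were rare. osa-miR162b had 2 reads in PD and 12 in PN, a ratio of 4.11 whose interval ran from 0.916 to 37.9. cln-miR162, the name from a conifer, had 5 reads in PD and 6 in PN, with a ratio of 0.823 (0.209 to 3.41). At this depth no difference between the libraries was detectable for either.

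Nearly all reads of miR168 lay on names of equal count. ath-miR168a-5p, the guide arm in Arabidopsis, had 360 reads in PD (465 TPM, 418 to 515) and 630 in PN (558 TPM, 515 to 603). gma-miR168b had the same 360 and 630 reads. The share was 1.20 times higher in PN (1.05 to 1.37), above equality beyond counting error. With identical counts taken once, the family held 361 reads in PD and 632 in PN, or 0.0466% and 0.0560% of counted reads.

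The other arm, sly-miR168a-3p, had 1 read in PD and 0 in PN. A count of 0 allows up to 3 reads by the one-sided 95% limit, a TPM of 2.66 in PN, and 3.27 by the two-sided exact interval used for the other names. bna-miR168b had 0 reads in PD, which allows a TPM of up to 3.87 by the former limit and 4.76 by the latter, and 2 reads in PN. Both names were at or under these limits, and no ratio is given for them.

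Set directly against each other within a library, bdi-miR162 had 6.46 reads per read of ath-miR168a-5p in PD (5.78 to 7.24) and 4.91 in PN (4.51 to 5.36). These intervals do not overlap, so the balance between the leading names of the families moved towards miR168 in the PN library. For ath-miR162a-3p the same measure was 3.04 in PD (2.70 to 3.44) and 2.88 in PN (2.63 to 3.16), with overlapping intervals. Of the 127 names in the table with at least 50 reads, 8.66% were higher in PN by 2-fold or more and 7.09% were lower by as much, with intervals that excluded equality. The 5 names of miR162 and miR168 with at least 50 reads were all within 2-fold.

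**Figure D1:**
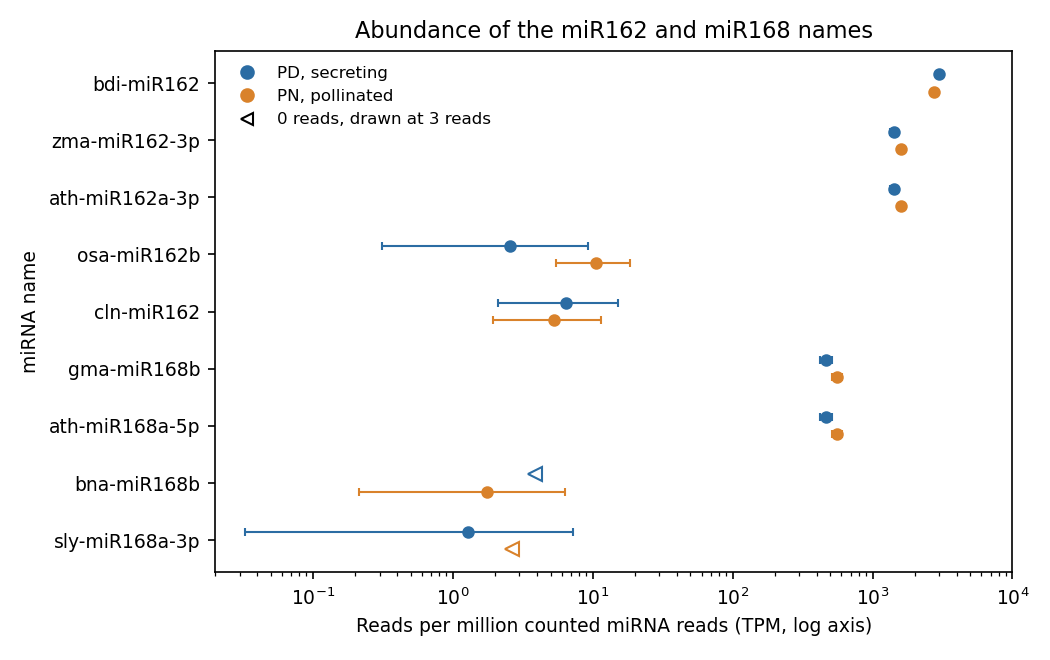
Abundance as TPM (log axis) for the 9 names of miR162 and miR168 in the PD and PN libraries. Bars are exact 95% intervals of counting error, and open triangles stand for 0 reads and are drawn at the level of 3 reads. The 5 names on the right lie at 465 TPM or more in both libraries, with bdi-miR162 lower and the others higher in PN, while the 4 rare names have wide intervals.

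The next question was which genes the target list attached to these names. The list belongs to the sample of mixed ovules and was taken here to come from degradome sequencing, which reads the ends of cleaved RNAs. It gives no read count, category or p-value for a pair, so pairs were not ranked. Each of the 38 members was listed with a single name of its family. miR162 members were spread over osa-miR162b (7 genes), zma-miR162-3p (6), cln-miR162 (4), bdi-miR162 (2) and ath-miR162a-3p (2). miR168 members were spread over sly-miR168a-3p (5), ath-miR168a-5p (4), gma-miR168b (4) and bna-miR168b (4).

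The number of listed genes did not follow the reads of the name. osa-miR162b, with 14 reads in both libraries together, carried the most members, and bdi-miR162, with 5421, carried only 2. Of the 38 members, 20 (52.6%) were listed with a name of fewer than 50 reads. This was close to the whole list, in which 492 of 902 genes (54.5%) had no name with 50 reads or more.

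Within miR162 and within miR168, names with identical read counts did not share targets. ath-miR162a-3p and zma-miR162-3p, equal in both libraries, had 2 and 7 listed genes with 0 in common. ath-miR168a-5p and gma-miR168b, also equal, had 5 and 6 listed genes with 0 in common. Over all families, 14 pairs of names of 1 family had at least 50 reads, identical counts and listed genes on both sides, and 2 of these pairs shared a gene. Within a family, 49 of 1030 family-gene pairs (4.76%) named more than 1 miRNA, and 0 of those were of miR162 or miR168.

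The members were then followed in the RNA-seq libraries. Of the 38, 37 passed the filter of a mean of at least 1 FPKM over both libraries. The exception, Gb_20390, listed with bdi-miR162, was among the 14708 genes of the table at 0 FPKM in both libraries. Whether this gene is silent or was not quantified was not tested. The members that passed lay high among the 21308 genes compared: 15 of 37 (40.5%) were in the top 10% by mean FPKM and 3 were below the median. All listed targets also lay high, with 249 of 797 (31.2%) in that top 10%.

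The most abundant member was Gb_02957, listed with the rare conifer name cln-miR162, at 5637 FPKM in PD and 3451 in PN. It ranked 10 among all genes in PD and 9 in PN, and its level in PN was 1.63-fold lower on the FPKM + 1 scale used for all differences below. This difference depended on the scaling: its log2 value was -0.71 as deposited and 0.01 after quantile normalization. Gb_33053, listed with the same name, stood at 299.8 FPKM in PD and 296 in PN. Genes of this name thus spanned a wide range of levels. Gb_25375 was at 28.3 FPKM in PD and 31.8 in PN, and Gb_08556 at 13.4 and 13.8 FPKM. Those 3 genes were nearly level between the libraries.

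The comparison of stages asked which members were at least 2-fold apart, a difference of at least 1 on the log2(FPKM + 1) scale. The added 1 shrinks the differences of genes of low FPKM. Among all genes compared, 9.27% were higher in PN by 2-fold or more and 6.86% were lower by as much. Among the 37 members, 0 were higher and 3 were lower by this limit. The share of lower members is near the background, and whether the count of 0 higher members departs from it was not tested. When the libraries were rescaled by median of ratios, the background became 7.44% higher and 8.50% lower, with the same 0 and 3 counts for the members. All listed targets gave 7.78% higher and 7.4% lower.

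The member with the largest difference was Gb_04698, listed with ath-miR168a-5p, the abundant arm of miR168. It stood at 26.0 FPKM in PD and 3.06 in PN, 6.66-fold lower (log2 difference -2.74). Only 0.530% of all genes compared had a more negative difference. Its level in PN was the lowest among the compared members apart from that of Gb_13868.

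The other members past the limit belonged to miR162. Gb_17137, listed with zma-miR162-3p, was at 289 FPKM in PD and 80.8 in PN, 3.55-fold lower (log2 difference -1.83). Gb_26843, listed with the rare name osa-miR162b, was at 726 FPKM in PD and 316 in PN, 2.30-fold lower (log2 difference -1.20). Both were abundant transcripts of the secreting ovule. Gb_17137 went from position 479 of all genes in PD to 2273 in PN, and Gb_26843 from 161 to 504.

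The member that came nearest to the limit in the other direction was Gb_18607, listed with sly-miR168a-3p, at 8.71 FPKM in PD and 17.3 in PN (log2 difference 0.92). It was followed by Gb_33045, listed with gma-miR168b, at 29.0 FPKM in PD and 53.6 in PN (0.86). gma-miR168b was itself higher in PN, while sly-miR168a-3p was too rare for a direction.

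**Figure D2:**
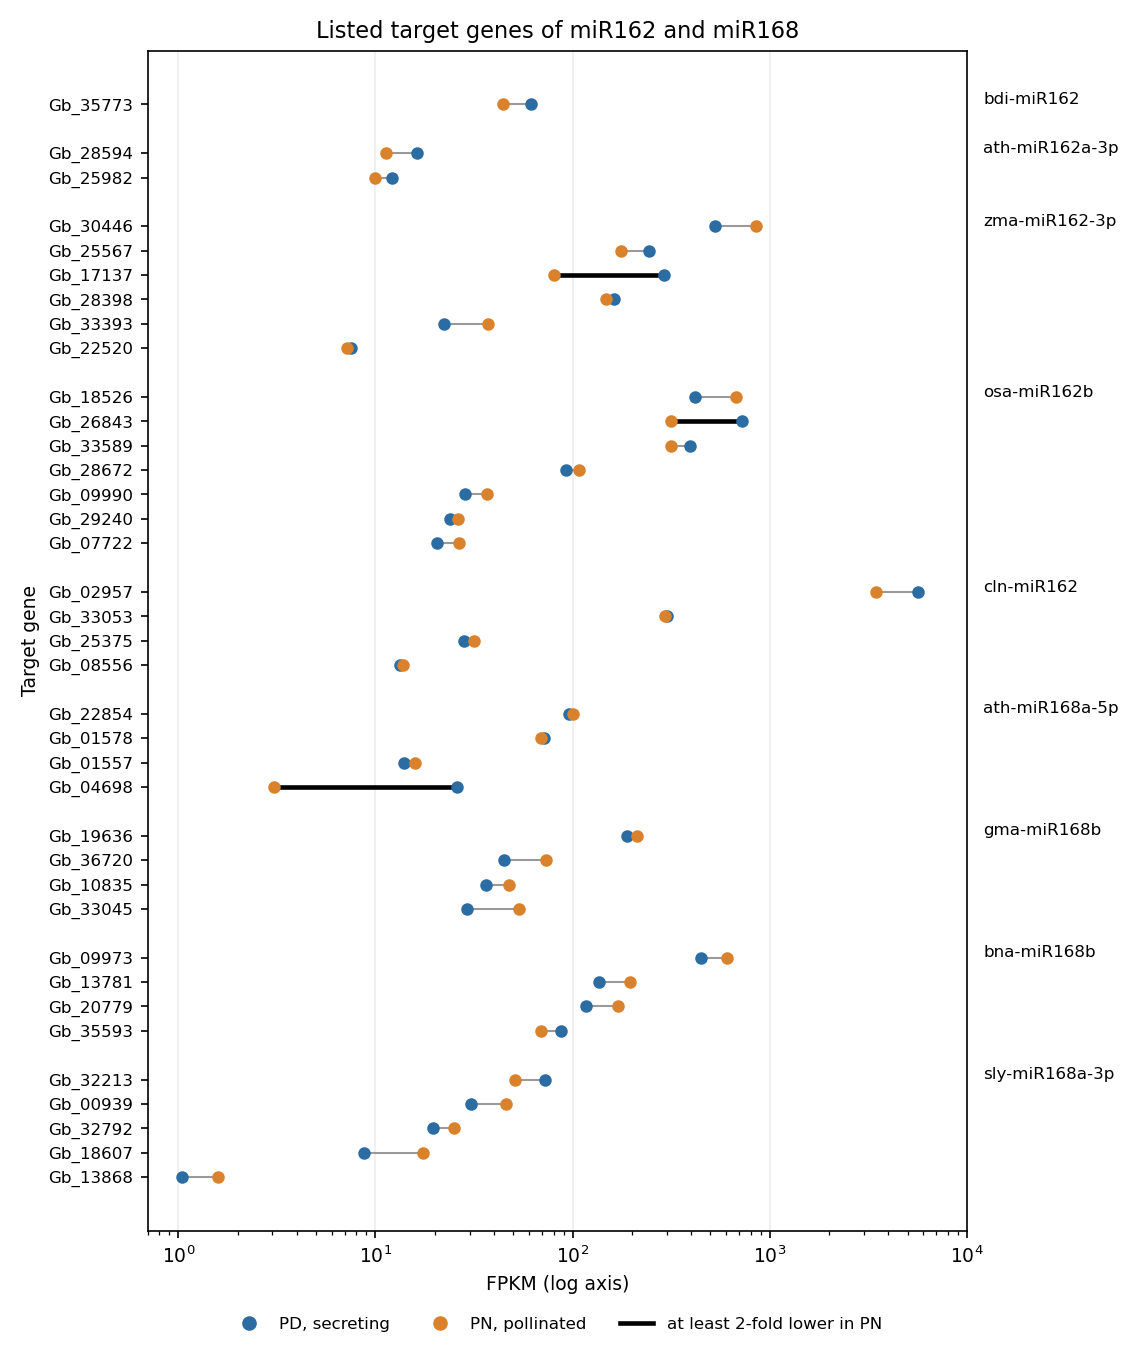
FPKM (log axis) of the 37 compared target genes in the PD and PN libraries, grouped by the miRNA name they are listed with, 1 library per stage. Thick lines mark the 3 genes at least 2-fold lower in PN, Gb_17137, Gb_26843 and Gb_04698. Levels range from 1.04 FPKM (Gb_13868 in PD) to 5637 FPKM (Gb_02957 in PD).

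Targets of the abundant miR162 names were mostly lower in PN, in a grouping by reads that was chosen after seeing the data. Of the 9 compared genes listed with bdi-miR162, ath-miR162a-3p or zma-miR162-3p, 7 were below 0 on the log2 scale and 2 above, with a median of -0.25. The median of all genes compared was 0.11, and 56.9% of them were above 0. Of the 7 genes below 0, Gb_28398 and Gb_22520 were nearly level (-0.13 and -0.07). Whether the 9 genes depart from all genes was not tested.

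For bdi-miR162 the compared gene was Gb_35773, at 61.7 FPKM in PD and 44.5 in PN. For ath-miR162a-3p, Gb_28594 was at 16.2 FPKM in PD and 11.3 in PN. Gb_25982, its other gene, was at 12.1 and 9.97 FPKM. These 3 genes were moderately expressed and 1.19-fold to 1.40-fold lower in PN.

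Genes listed with zma-miR162-3p went both ways. Gb_30446 was at 529 FPKM in PD and 850.2 in PN, and Gb_33393 at 22.1 and 37.3 FPKM, with differences of 0.68 and 0.73. Beside Gb_17137, lower levels in PN were measured for Gb_25567, at 244 and 175 FPKM. The other genes of this name were nearly level, with Gb_28398 at 162 and 148 FPKM and Gb_22520 at 7.51 and 7.13 FPKM.

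Of the 7 genes listed with the rare osa-miR162b, 5 were higher in PN, beside 56.9% of all genes compared. Gb_18526 was the largest of these, at 418 FPKM in PD and 677 in PN (log2 difference 0.69). Gb_28672 was at 92.9 and 107 FPKM, and Gb_09990 at 28.4 and 36.8 FPKM. The less abundant genes followed, Gb_29240 at 23.9 and 26.3 FPKM and Gb_07722 at 20.5 and 26.4 FPKM. Gb_33589 was lower, at 396 FPKM in PD and 317 in PN.

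Over all 20 compared genes of miR162, 9 (45%) were above 0 and 11 below, with a median of -0.04. Among all genes compared, 56.9% were above 0. The differences of the miR162 genes ran from -1.83 to 0.73. The miR162 list as a whole held no common direction.

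The genes listed with miR168 were mostly higher in PN, though not for each name. Of the 17 compared genes, 13 (76.5%) were above 0 and 4 below, beside 56.9% of all genes and 53.1% of all listed targets above 0. Their median was 0.34, beside 0.11 for all genes and 0.07 for all listed targets. With 1 library per stage and genes that share it, the count is a description of these libraries and was not tested. Under median-of-ratios scaling 12 of the 17 were above 0, with a median of 0.26 beside 0.003 for all genes. The genes of the abundant names differed as deposited: ath-miR168a-5p had 2 of 4 genes above 0 (median 0.008) and gma-miR168b 4 of 4 (median 0.53). These names had identical read counts, so the reads do not tell them apart, and each gene is listed with a single name. The rare names, which were too rare for a direction, held 9 of the 17 genes and 7 of the 13 above 0.

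For the abundant arm, the genes of ath-miR168a-5p other than Gb_04698 were nearly level. Gb_22854 was at 96.2 FPKM in PD and 101 in PN, Gb_01578 at 71.8 and 69.3 FPKM, and Gb_01557 at 14.0 and 15.8 FPKM. The lower level of Gb_04698 in PN was not shared by the other genes of its name.

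All 4 genes listed with gma-miR168b were higher in PN, as were 56.9% of all genes compared. Beside Gb_33045, Gb_36720 was at 45.0 FPKM in PD and 73.3 in PN. Gb_10835 was at 36.4 and 47.4 FPKM, and Gb_19636 at 189 and 211 FPKM. The differences of the 4 genes ran from 0.16 to 0.86.

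Of the 9 genes listed with the rare miR168 names, 7 were higher and 2 lower in PN, with differences from -0.50 to 0.92. Among all genes compared, 56.9% were higher, and whether these 9 depart from that share was not tested. With bna-miR168b, Gb_09973 was at 451 FPKM in PD and 607 in PN, Gb_13781 at 135 and 196 FPKM, and Gb_20779 at 117 and 169.7 FPKM. The remaining gene of that name, Gb_35593, was lower, at 87.3 and 68.9 FPKM.

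With the minor arm sly-miR168a-3p, 4 of 5 genes were higher in PN. Gb_00939 was at 30.5 FPKM in PD and 45.8 in PN, and Gb_32792 at 19.7 and 25.1 FPKM. Gb_32213 was lower, at 72.4 and 50.7 FPKM. Gb_13868 was the least abundant compared member, at 1.04 and 1.59 FPKM, where the pseudocount weighs most.

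**Figure D3:**
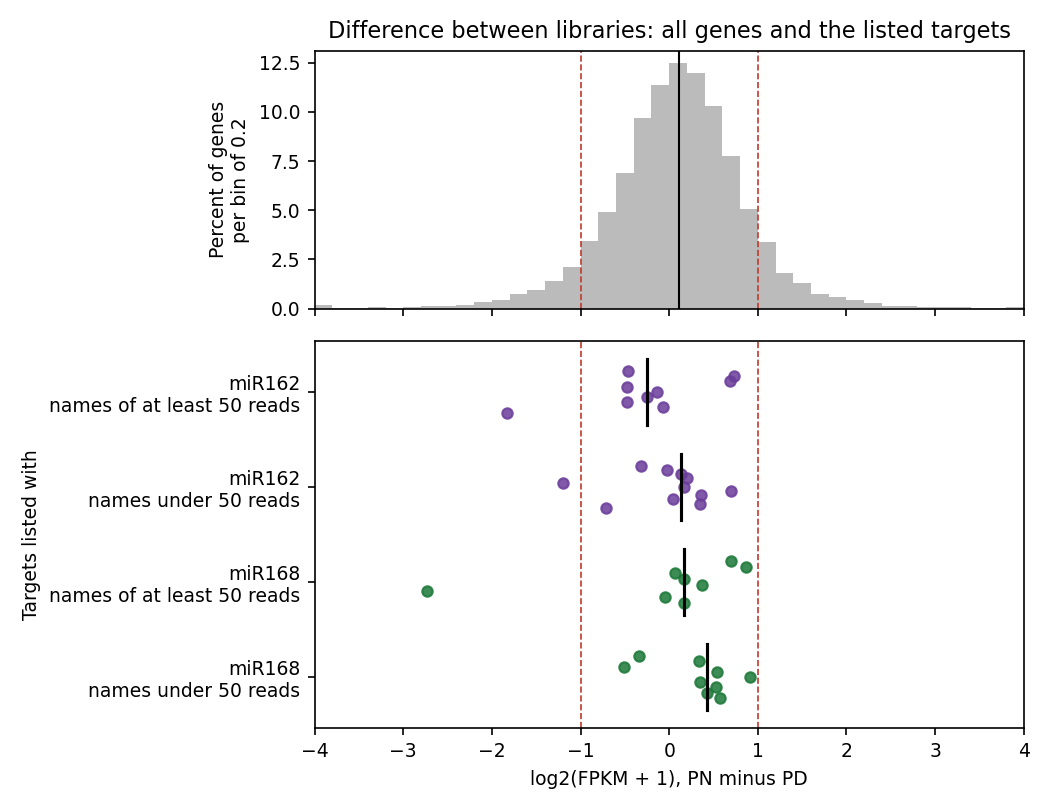
Difference in log2(FPKM + 1), PN minus PD, for all 21308 genes compared (upper panel, percent of genes per bin, black line at the median of 0.11, values past 4 placed in the end bins) and for the 37 compared targets (lower panel, 1 point per gene, black bars at the medians of -0.25, 0.13, 0.16 and 0.43 from top to bottom). Dashed lines mark the 2-fold limits: 3 targets lie below the lower limit and 0 above the upper one. The grouping of targets by the reads of their listed name was chosen after seeing the data.

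The members were also split by the reads of the name they are listed with, a split chosen after seeing the data. Those listed with names of at least 50 reads had a median of -0.05 (17 genes, 8 above 0), and those listed with names under 50 reads a median of 0.27 (20 genes, 14 above 0). Among all genes compared, the median was 0.11 and 56.9% were above 0. The order of the 2 groups was the same in each family, with medians of -0.25 and 0.13 for miR162 and of 0.16 and 0.43 for miR168. The gene groups overlap over most of their ranges, and the difference was not tested.

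The 6 genes listed for miR162 or miR168 and for another family as well were not counted among the members. Gb_26865, listed with zma-miR162-3p and with htu-miR171a, was at 290 FPKM in PD and 110.2 in PN, 2.61-fold lower. Gb_37442, listed with gma-miR168b and ata-miR395b-3p, was among the most abundant genes, at 1165 FPKM in PD and 1481 in PN. Gb_04916 was at 76.2 and 41.9 FPKM, and Gb_34642 at 79.9 and 56.4 FPKM. Gb_29476 was at 3.37 and 6.86 FPKM, and Gb_01915 at 39.8 and 33.6 FPKM. All 6 differences lay within the range of the members.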

How the data were processed

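FPKM per gene, read counts per miRNA name and TPM were deposited by the authors, per the file headers. Each TPM matched its read count over all counted reads to within 4.95e-05. The submitters' processing notes name Bowtie, TopHat, TopHat2 2.0.12 and Cufflinks 2.1.1. How reads were assigned to names, the annotation and the build: not given in the sources used here. Of the gene table, 2 columns with the same header were not used. The target list, taken here as the product of the degradome (cleaved RNA ends), holds 1084 pairs after 8 repeated rows were dropped.

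Differences were taken on log2(FPKM + 1) for genes with a mean of at least 1 FPKM, described as apart at 2-fold, with no test because there was 1 library per stage. Shares of reads have exact Clopper-Pearson intervals and ratios of shares exact conditional binomial ones (Python 3.11.15, SciPy 1.17.1, pandas 2.3.3), checked on simulated data. All members with a mean of at least 1 FPKM were named, as were all miRNA names of the families. The members, lists and limits were chosen with earlier results of these data known. Alternatives covered the pseudocount, the filter, the scaling, the denominator of shares and the reading of family sums.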

Additional observations from a re-analysis of the deposited data

How the results depend on the processing

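No paired analysis was possible because each stage had a single usable column of FPKM, and leaving out a replicate could not be run for the same reason. Across pseudocounts of 0.1 and 0.5, no filter, a minimum of 5 FPKM, median-of-ratios and quantile scaling, 0 members were higher by 2-fold or more and 3 were lower by as much, and 4 were lower with the 6 shared genes included. Median-of-ratios scaling moved the median of all genes from 0.11 to 0.00 and that of the members from 0.16 to 0.046, with 2 members changing sign by construction of the shift; quantile scaling changed the sign of 3, Gb_02957 among them (-0.71 to 0.01). The median of the members was -0.052 over those listed with names of at least 50 reads, a setting chosen after seeing the data. The ratio of miR162 was 1.02 by sums, 1.09 without miR166 in the denominator (by construction, since miR166 made up 79.3% of reads in PD and 80.6% in PN), 0.912 by its largest name and 0.985 with identical counts once. Under median-of-ratios scaling the interval of the summed ratio was 1.01 to 1.08. That sum includes the identical counts of both ath-miR162a-3p and zma-miR162-3p, which narrows the interval if these are the same reads. With identical counts once, the interval was 0.943 to 1.03 as shares, and median-of-ratios scaling was not applied to it. The ratio of miR168 stayed from 1.20 to 1.28. No ratio was formed for miR403. Depth limits the rare names most.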
